A study of Mus musculus with 6 samples.

Results

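Transcripts of the transcription factor NRF2 (gene Nfe2l2), of its regulators KEAP1, p62 and MafG, of its relative NFE2L1, and of 5 enzymes tied to NADPH supply or use were followed in mouse muscle satellite cells treated with the protein MG53. The 10 genes were taken by symbol as Nfe2l2, Nfe2l1, Mafg, Keap1, Sqstm1, Nqo1, G6pdx, Pgd, Taldo1 and Me1, out of 27179 genes counted. All 10 passed the filter on low counts, as did 13769 genes in all. Satellite cells are the stem cells of skeletal muscle, and MG53, a muscle protein of the TRIM family, is best known for helping to reseal damaged cell membranes.

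Primary cells came from hindlimb muscle of wild-type C57BL/6 mice and grew in DMEM with 20% FBS and bFGF. The labels call the cells ageing and give no age. One group of 3 libraries received recombinant human MG53 (rhMG53) and the other group of 3 received bovine serum albumin (BSA) as the vehicle control, each for 72 h. Genotype, strain and medium were the same for all 6 libraries, and all 6 carried the label day 3. The replicates are called biological without a description of the animals or cultures behind them. A p-value here weighs the difference between groups against the spread between libraries of a group, which edgeR draws partly from other genes. That spread may be technical.

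Library totals ran from 17374151 to 22738745 counts. The labelled cell type was checked against fixed markers. The 8 myogenic markers were Pax7, Myf5, Myod1, Myog, Des, Myh3, Acta1 and Ckm. They summed to between 41308 and 43751 CPM (counts scaled to library size) with BSA and between 39269 and 44246 CPM under rhMG53. This sum mixes stem cell markers with genes of differentiated muscle, so it cannot show satellite cell identity. Under rhMG53, 3 of the 8 had a higher fitted level and 5 a lower one. Pax7 was at a log2 fold change of -0.25 with overlapping groups. Fibroblast markers summed to between 1031 and 1279 CPM under BSA and between 1178 and 1280 CPM under rhMG53, with Tcf21 at 0 in all libraries. Of the 6 tested, 4 were higher and 2 lower. Dcn alone of them, at a log2 fold change of 0.19, had every rhMG53 library above every BSA library. Smooth muscle and pericyte markers stood at 106.9 to 123.8 CPM and at 114.9 to 128.0 CPM, with Kcnj8 at 0. Leukocyte markers summed to 2.63 to 2.95 CPM under BSA and 2.13 to 7.07 CPM under rhMG53, with Lyz2 at a log2 fold change of 1.48 and overlapping groups. Endothelial sums were at 1.40 to 2.02 CPM and 1.26 to 1.96 CPM. Emcn, the only endothelial marker tested, was at a log2 fold change of -0.90, with every rhMG53 library below every BSA library. Adipocyte sums were under 1 CPM in every library. The Schwann sum was at 1.01 to 1.70 CPM under BSA and at 2.06 to 2.19 CPM under rhMG53. The part of these cell types in the values of the 10 genes was not tested. RNA came from whole cultures, in which fewer cells of a type and less RNA per cell cannot be told apart.

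NRF2 is a transcription factor that the adaptor KEAP1 holds in the cytoplasm and delivers to a CUL3 ubiquitin ligase, so that in unstressed cells it is degraded soon after it is made. Electrophiles and oxidants modify KEAP1, and the autophagy adaptor p62 can bind it in place of NRF2. Freed NRF2 pairs with a small Maf protein on antioxidant response elements of genes for detoxification, glutathione and NADPH supply. Most of this control acts on the protein, which RNA counts do not measure.

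The core of the antioxidant response element was searched in the RefSeq promoter windows of the 10 genes (GRCm38.p6, 250 bases before to 50 after each transcription start), as the letters TGACNNNGC on both strands. Of 32851 windows of all genes 12.4% held it, and of the 10638 tested genes with a window 17.03% held it in at least 1. Among the 10 genes it was found in 5, namely Nfe2l2, Mafg, G6pdx, Me1 and the second annotated start of Pgd. The 60 bases around the match are shown for the 4 genes in which it began upstream of the start. They let a reader compare the element between the factor, its partner and the enzymes. Each reads 5′ to 3′ on the strand of the gene, which is the minus strand for all 4, and capitals mark the match.
Nfe2l2, chr2:75704854-75704913: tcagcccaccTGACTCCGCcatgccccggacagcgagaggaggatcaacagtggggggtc
Mafg, chr11:120633735-120633794: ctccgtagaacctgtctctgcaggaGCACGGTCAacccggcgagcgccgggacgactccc
G6pdx, chrX:74428903-74428962: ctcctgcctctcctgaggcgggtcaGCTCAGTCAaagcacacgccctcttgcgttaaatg
Me1, chr9:86695886-86695945: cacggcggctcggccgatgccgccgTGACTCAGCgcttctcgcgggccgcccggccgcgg

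The match began 240 bases before the start of Nfe2l2, 222 before that of Mafg, 57 before that of G6pdx and 6 before that of Me1. In Me1 it ran across the start. In Mafg and G6pdx it lay on the strand opposite to the gene, so the printed strand shows the reverse complement, and the annotated Mafg locus runs on past this window. In Pgd the match began 3 bases after the second start. The Me1 match overlaps the AP-1 motif TGANTCA, which 7.81% of all windows held. The windows of Nfe2l1, Keap1, Sqstm1, Nqo1 and Taldo1 did not hold the letters, which says nothing about elements farther away.

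None of the 10 genes passed an adjusted p of 0.05 in edgeR's quasi-likelihood test over all tested genes, where 3 genes did (0.0218%). With rhMG53, 8 of the 10 had a higher fitted level and 2 a lower one, with a median log2 fold change of 0.14, against a median of 0.00142 and 50.5% higher over all tested genes. In 6 genes (Nfe2l2, Sqstm1, Nqo1, G6pdx, Pgd and Taldo1) every rhMG53 library lay above every BSA library, a pattern that 5.94% of all tested genes showed. The opposite pattern, every rhMG53 library below every BSA library, was found in 0 of the 10 and in 4.83% of tested genes. An unadjusted p under 0.05 was reached by 4 higher genes (Sqstm1, Nqo1, Pgd and Taldo1) and 0 lower ones, where 2.98% of tested genes were higher and 2.22% lower at that level. At the same level DESeq2 gave 2 higher and 0 lower and limma voom 4 higher and 0 lower, and neither tool called any of the 10. The 10 genes were chosen with results of these data known, so these counts describe them and are no test.

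**Figure D1:**
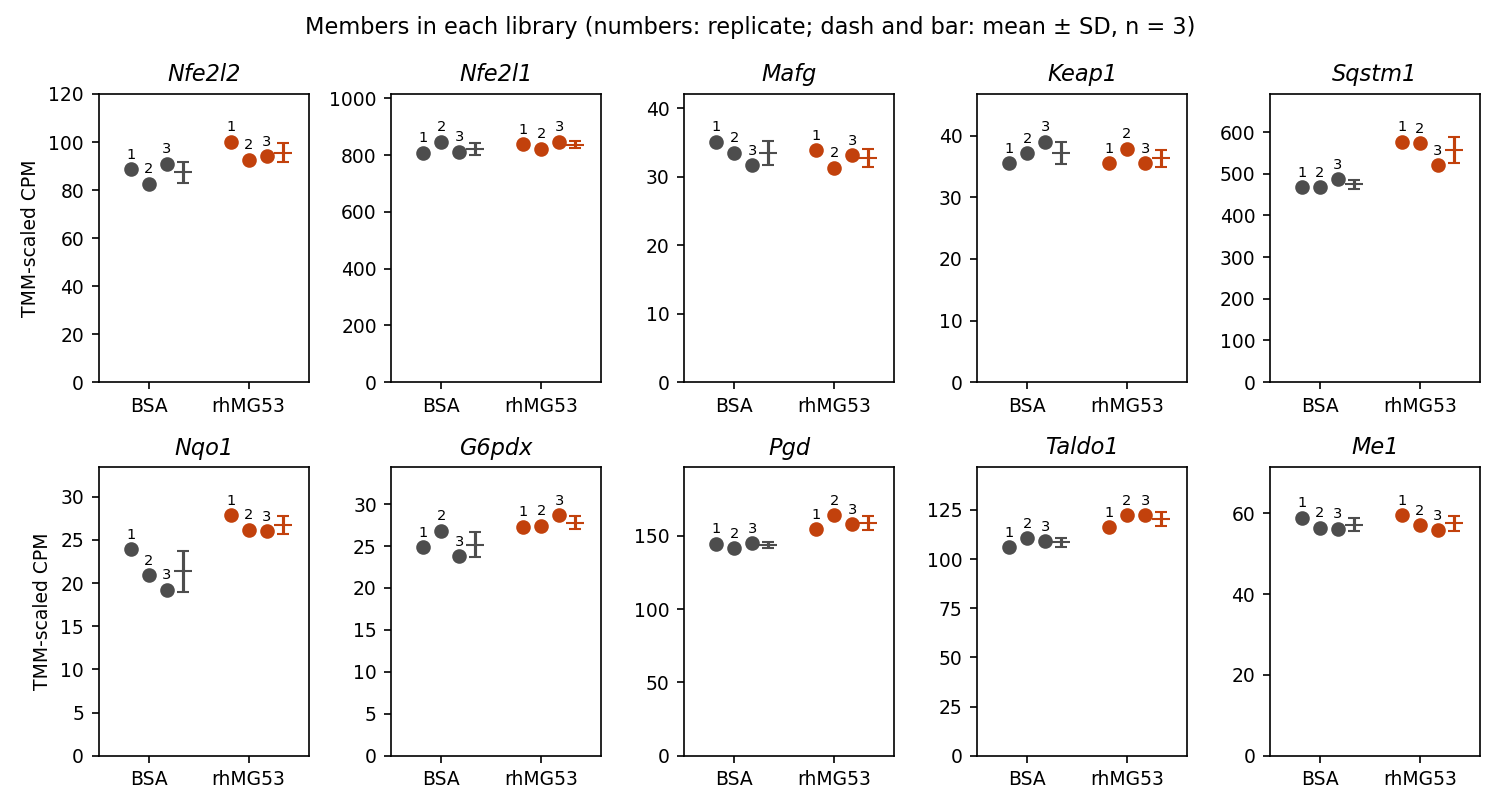
TMM-scaled CPM of each of the 10 genes (vertical axis, from 0) in the 3 BSA (grey) and 3 rhMG53 (orange) libraries, with replicate numbers above the points and the mean ± SD beside them. The groups are apart for Nfe2l2, Sqstm1, Nqo1, G6pdx, Pgd and Taldo1 and overlap for Nfe2l1, Mafg, Keap1 and Me1.

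The transcription factors came first. Nfe2l2 (gene ID 18024, chromosome 2, 75675513 to 75704663, minus strand) stood at 88.8, 82.6 and 90.9 CPM in BSA replicates 1 to 3 and at 100.2, 92.6 and 94.0 CPM in rhMG53 replicates 1 to 3. All 3 rhMG53 libraries were higher than all 3 BSA libraries, yet the gap between the nearest of them, 90.9 and 92.6 CPM, was smaller than the spread within either group. The mean was 87.4 ± 4.31 CPM (SD, n = 3) with BSA and 95.6 ± 4.01 CPM under rhMG53, a 1.09-fold ratio with a 95% interval of 0.993 to 1.204. On the log2 scale this was 0.13 (SE 0.063) with an edgeR adjusted p of 0.965.

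Nfe2l1 (18023, chromosome 11, 96817414 to 96829968, minus strand) encodes an endoplasmic reticulum-tethered relative of NRF2 that is known to drive proteasome genes after cleavage. It stood at 807.7, 847.4 and 812.1 CPM under BSA and at 839.2, 822.1 and 847.4 CPM under rhMG53. The ranges overlapped almost fully, and its log2 fold change was 0.02 with a 95% interval from -0.10 to 0.15. The third relative, Nfe2l3, had between 0 and 3 counts in a library and was not tested. The ratio of Nfe2l2 to Nfe2l1 counts, which does not depend on library scaling, was 0.110, 0.0975 and 0.112 with BSA and 0.119, 0.113 and 0.111 with rhMG53, and these overlapped too.

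MafG (Mafg, 17134, chromosome 11, 120625117 to 120634955, minus strand) is 1 of the small Maf proteins that pair with NRF2. Its levels were 35.1, 33.5 and 31.6 CPM under BSA and 33.9, 31.3 and 33.1 CPM under rhMG53, so the groups overlapped and the log2 fold change was -0.03 (95% interval -0.18 to 0.12). Per kilobase of exon, Mafk was the most abundant small Maf, at 26.8 ± 0.941 CPM per kb with BSA and 25.9 ± 1.17 with rhMG53, while Maff was at 6.87 ± 0.0960 and 8.07 ± 0.125 and Mafg at 6.19 ± 0.322 and 6.07 ± 0.247. Maff alone of the 3 had every rhMG53 library above every BSA library, with 15.8, 15.9 and 15.5 CPM against 18.2, 18.8 and 18.5 CPM, a log2 fold change of 0.23 (SE 0.076) and an edgeR adjusted p of 0.935.

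Keap1 (50868, chromosome 9, 21229730 to 21239332, minus strand), the inhibitor, stood at 35.5, 37.1 and 39.0 CPM under BSA and at 35.5, 37.9 and 35.5 CPM under rhMG53. The lowest library of both groups was at the same level and the groups overlapped, with a log2 fold change of -0.03 and a 95% interval from -0.18 to 0.11. The ratio of Nfe2l2 to Keap1 counts was 2.50, 2.23 and 2.33 with BSA and 2.82, 2.44 and 2.65 with rhMG53, or 2.35 ± 0.139 and 2.64 ± 0.188. The second rhMG53 library was within the BSA range of this ratio. Exons of Keap1 share 510 bases (11.3% of its exon length) with Gm16754 on the other strand, and the strand setting of the counting is not given.

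Sqstm1 (18412, chromosome 11, 50200152 to 50210820, minus strand) encodes p62, which carries ubiquitinated cargo into autophagosomes, can sequester KEAP1 and is itself a known NRF2 target. The BSA libraries were at 468.3, 468.3 and 486.5 CPM and the rhMG53 libraries at 577.1, 573.5 and 520.7 CPM. The BSA libraries lay close together, and the third rhMG53 library sat between them and the other two. The means were 474.4 ± 10.5 and 557.1 ± 31.5 CPM, a 1.17-fold ratio (95% interval 1.07 to 1.29). It ranked 50 of 13769 by p, with a log2 fold change of 0.23 (SE 0.063) and an edgeR adjusted p of 0.935. Exons of Sqstm1 share 580 bases (20.5% of their length) with Mrnip on the other strand, which had 343 counts over all 6 libraries where Sqstm1 had at least 8288 in each.

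Nqo1 (18104, chromosome 8, 107388225 to 107403205, minus strand) encodes the quinone reductase that spends NADPH or NADH to reduce quinones and is a standard readout of NRF2. Its BSA libraries were at 23.9, 20.9 and 19.2 CPM and its rhMG53 libraries at 27.9, 26.2 and 26.0 CPM. The BSA group was the more spread, with a coefficient of variation of 11.1% against 3.86%, and its highest library was still under the lowest rhMG53 library. The means were 21.4 ± 2.36 and 26.7 ± 1.03 CPM, a 1.25-fold ratio (95% interval 1.09 to 1.43) that ranked 61 by p, with an edgeR adjusted p of 0.935. This was the largest difference and the widest interval of the 10 genes. The paralog Nqo2, a quinone reductase that does not use NADPH, was at 21.6 ± 1.21 CPM under BSA and 20.9 ± 1.43 CPM under rhMG53, a log2 fold change of -0.05.

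The pentose phosphate pathway makes NADPH in its oxidative arm, where glucose-6-phosphate dehydrogenase (G6pdx) and 6-phosphogluconate dehydrogenase (Pgd) each reduce NADP+, and exchanges sugars in its non-oxidative arm, where transaldolase (Taldo1) acts. G6pdx (14381, chromosome X, 74409483 to 74428880, minus strand), which takes the entry step, was at 24.9, 26.8 and 23.8 CPM under BSA and 27.3, 27.4 and 28.7 CPM under rhMG53. Its second BSA library nearly reached the rhMG53 libraries. The log2 fold change was 0.14 (SE 0.073), with a 95% interval that spanned 0, from -0.02 to 0.30. G6pd2, an autosomal copy that is 93.2% identical over 2332 bases, had 0 counts in all 6 libraries.

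Pgd (110208, chromosome 4, 149149991 to 149166705, minus strand) was the steadiest of the 10 genes with BSA, at 144.5, 141.3 and 144.8 CPM, and stood at 154.3, 164.1 and 157.8 CPM under rhMG53. Taldo1 (21351, chromosome 7, 141392160 to 141402976, plus strand) was at 106.1, 110.7 and 109.1 CPM under BSA and at 116.3, 122.4 and 122.2 CPM under rhMG53. In both genes the groups were apart by more than the full range of the BSA libraries. The fitted differences of the 3 pentose phosphate genes were close to each other, at 0.14 for G6pdx, 0.15 (SE 0.055) for Pgd and 0.15 (SE 0.056) for Taldo1. As folds these were 1.10, 1.11 and 1.11, with 95% intervals of 0.988 to 1.24, 1.02 to 1.203 and 1.02 to 1.21, and edgeR adjusted p-values of 0.965, 0.946 and 0.946.

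Malic enzyme 1 (Me1, 17436, chromosome 9, 86581363 to 86695914, minus strand), which makes cytosolic NADPH from malate, had groups that overlapped. It was at 58.9, 56.4 and 56.1 CPM under BSA and at 59.5, 57.1 and 55.8 CPM under rhMG53, and both the highest and the lowest library belonged to the rhMG53 group. The log2 fold change was 0.01 with a 95% interval from -0.13 to 0.14. Within libraries the count ratio of Pgd to Me1 was 2.45, 2.50 and 2.58 with BSA and 2.59, 2.88 and 2.83 with rhMG53. The lowest rhMG53 ratio was just over the highest BSA ratio, and the means were 2.51 ± 0.0636 and 2.77 ± 0.151. Reads of Me1 could be shared with near-identical copies (Gm7049, 98.5% identical over 1638 bases, and Gm48795, 98.7% over 1159), and those of Taldo1 with Gm17823 (94.7% over 923).

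**Figure D2:**
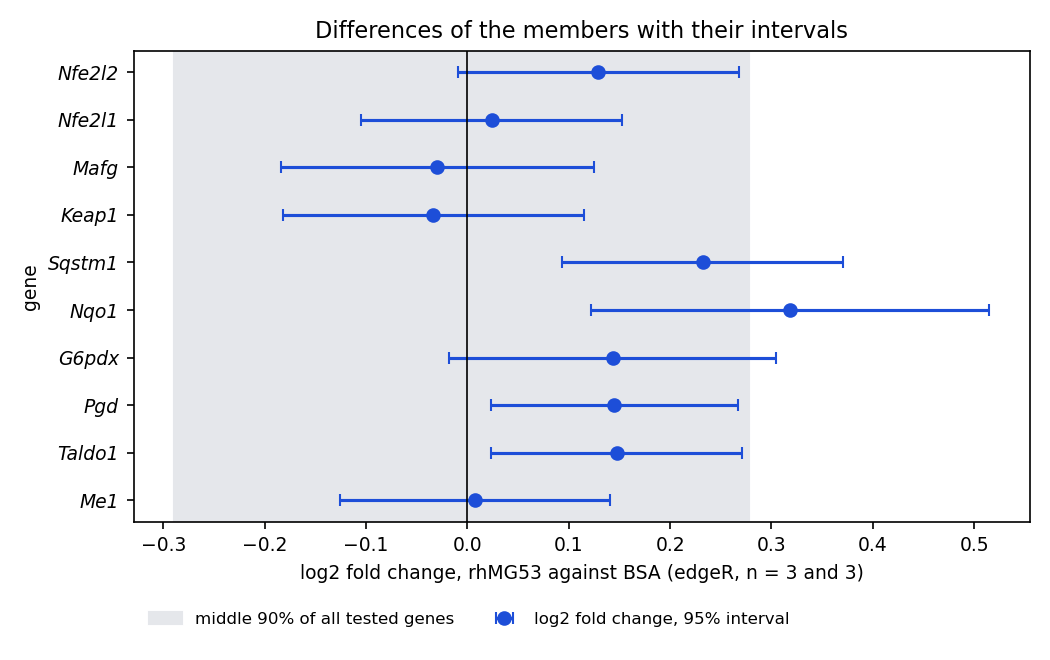
Log2 fold change of rhMG53 against BSA (horizontal axis) for each gene, with its 95% interval derived from the edgeR fit as the bar and the middle 90% of all tested genes (-0.29 to 0.28) shaded. Nqo1 alone has its point outside the shaded range, and the intervals of Sqstm1, Nqo1, Pgd and Taldo1 lie above 0.

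Levels spanned a wide range between the genes. Scaled per kilobase of exon and averaged over the 6 libraries, Sqstm1 was at 182.7 CPM per kb (range 165.9 to 204.4) and Nfe2l1 at 170.4 (166.0 to 174.1), the 2 highest, with overlapping ranges. Taldo1 followed at 83.9, Pgd at 68.1 and Nfe2l2 at 37.0 CPM per kb, each apart from its neighbours. Me1 at 15.9 and Nqo1 at 15.5 overlapped, and G6pdx at 9.99, Keap1 at 8.17 and Mafg at 6.13 CPM per kb were again apart from each other. Sqstm1 stood above 97.9% of the tested genes with a known exon length, Nfe2l2 above 88.0% and Mafg above 50.4%. Of the pair in the oxidative arm, the entry enzyme G6pdx was therefore at a much lower transcript level per length than Pgd in every library.

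**Figure D3:**
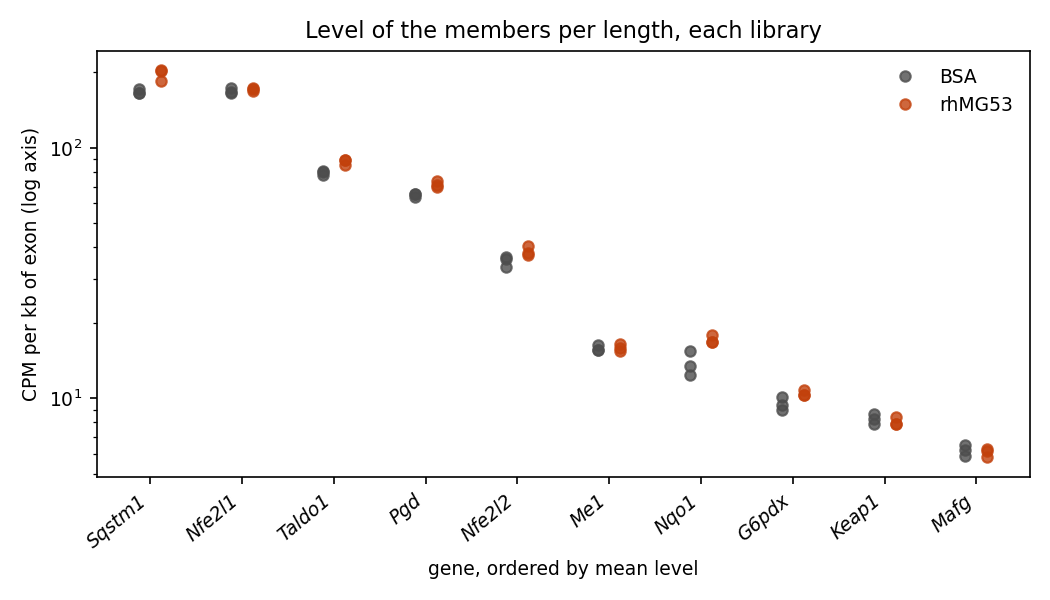
Level of each gene in CPM per kilobase of exon (vertical log axis), genes ordered by their mean, with 1 point per library for BSA (grey) and rhMG53 (orange). Sqstm1 and Nfe2l1 lead at 182.7 and 170.4 CPM per kb on average, and Mafg is lowest at 6.13.

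The spread between libraries was small for most of the genes. With BSA the coefficient of variation ran from 1.35% for Pgd to 11.1% for Nqo1, and with rhMG53 from 1.54% for Nfe2l1 to 5.66% for Sqstm1. The counting error alone of the lowest library was 0.827% for Nfe2l1 and 5.35% for Nqo1, and it does not cover variation in library preparation. Some spreads were smaller than this error, such as 3.86% for Nqo1 with rhMG53. Such spreads understate the variation to be expected. The 95% intervals, which are not adjusted for the number of genes tested, reached 0.12 to 0.20 to either side on the log2 scale. Changes smaller than that could not be resolved with 3 libraries a group even before adjustment. After adjustment larger ones were not called either, such as that of Nqo1 at 0.32 (edgeR adjusted p 0.935).

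By the root mean square difference of centred log2 CPM over the 6 libraries, among 6590 other named genes of at least 20 CPM, the patterns nearest to Nfe2l2 were those of the potassium channel gene Kcnc1 (0.0313) and the chemokine gene Ccl2 (0.0318). Kcnc1 was at 24.9 CPM on average with BSA and 27.3 with rhMG53, and Ccl2 at 118.1 and 126.3. The log2 fold change of Ccl2, 0.10, was 0.05 without BSA replicate 2 and 0.06 without rhMG53 replicate 1. Nearest to Nqo1 were Csf1 (0.0563), the gene of a macrophage growth factor, at 295.7 and 356.9 CPM, and the dipeptidase gene Cndp2 (0.0613), at 37.1 and 46.6 CPM. The order describes these 6 libraries only.

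Genes around the pathway were described by lists, with medians set against 0.00142 for all tested genes. Other factors that control NRF2 (17 genes, 15 tested) include its competitor Bach1, the ligase parts Cul3 and Rbx1 and the kinase Gsk3b. None of the 15 passed, with 9 higher and 6 lower, a median log2 fold change of 0.01, and 2 higher and 0 lower at an unadjusted p under 0.05. Those 2 were Maff, described above, and Sesn2, a stress-induced leucine sensor, at 17.4 ± 0.839 CPM under BSA and 20.3 ± 1.53 CPM under rhMG53 (log2 fold change 0.23, SE 0.086, edgeR adjusted p 0.946). The values of Cul3 (-0.04), Rbx1 (0.07), Gsk3b (0.00123) and Bach1 (0.08) were all within the middle 90% of tested genes.

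In the list for the maturation of NFE2L1 (7 genes, all tested) none passed, 2 were higher and 5 lower, and the median was -0.01, with 0 higher and 1 lower at an unadjusted p under 0.05. The lower gene was Ogt, the enzyme that adds O-linked N-acetylglucosamine to proteins, at 187.8 ± 12.1 CPM under BSA and 162.8 ± 16.7 CPM under rhMG53 and overlapping between groups. Ngly1, which removes N-glycans from NFE2L1, was at 23.2 ± 2.63 and 25.2 ± 1.68 CPM, and its log2 fold change of 0.12 was 0.20 without BSA replicate 2, 0.04 without BSA replicate 3 and 0.07 without rhMG53 replicate 3. Proteasome subunits are the known targets of NFE2L1. Of 31 tested, none passed, 10 were higher and 21 lower, the median was -0.02, and none had an unadjusted p under 0.05 in either direction. The 2 of lowest p, Psmb2 and Psma4, had log2 fold changes of 0.08 and 0.07. Without rhMG53 replicate 2 these were 0.03 and 0.04, and without rhMG53 replicate 1 that of Psmb2 was 0.13.

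Partners of p62 and other autophagy receptors (14 genes) also had none past the threshold, 7 higher and 7 lower, a median of -0.00241 and 0 genes at an unadjusted p under 0.05. The p62 relative Nbr1 was at -0.04 and the LC3 gene Map1lc3b at 0.05 on the log2 scale, against 0.23 for Sqstm1 itself. Lowest in p were Gabarap, at 47.8 ± 1.11 and 50.6 ± 2.42 CPM, and the atypical kinase gene Prkcz, at 2.68 ± 0.634 and 2.27 ± 0.0906 CPM. The log2 fold change of Gabarap, 0.08, was 0.04 without rhMG53 replicate 2, and that of Prkcz, -0.24, was -0.10 without BSA replicate 2 and -0.41 without BSA replicate 3. No gene of this list had groups that were apart.

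Other genes of NADPH supply (19 genes, 18 tested) included the rest of the pentose phosphate pathway, the isocitrate dehydrogenases, the folate enzymes and the NAD kinases. None passed, 15 were higher and 3 lower, the median was 0.07, and 1 was higher and 0 lower at an unadjusted p under 0.05. That gene was Tkt, the transketolase of the non-oxidative arm, at 40.1, 36.3 and 39.98 CPM under BSA and 49.0, 44.7 and 41.7 CPM under rhMG53. The groups were apart for Tkt, with a log2 fold change of 0.22 (SE 0.077) and an edgeR adjusted p of 0.940. They were also apart for the mitochondrial folate enzyme gene Mthfd2, at 30.9 ± 3.71 and 34.8 ± 0.242 CPM, and, named after its values were seen, for the NAD kinase gene Nadk, at 50.7 ± 2.08 and 54.1 ± 1.46 CPM. The log2 fold change of Mthfd2, 0.17, was 0.08 without BSA replicate 2, its lowest library. Pgls, the lactonase between G6pdx and Pgd, was at 0.07, and Rpia and Rpe of the non-oxidative arm at 0.12 and 0.03 on the log2 scale. Other mitochondrial enzymes of the list lay on both sides of 0, with Aldh1l2 at -0.13, Me3 at -0.03, Nnt at -0.00159, Nadk2 at 0.00841, Idh2 at 0.06 and Mthfd2l at 0.06.

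Fatty acid synthesis consumes NADPH, and its 7 genes, all tested, gave no call, with 4 higher and 3 lower, a median of 0.00607, and 1 higher and 0 lower at an unadjusted p under 0.05. That gene was Acly, the citrate lyase, at 176.3 ± 10.03 CPM under BSA and 195.7 ± 5.83 CPM under rhMG53 (log2 fold change 0.15, SE 0.061, edgeR adjusted p 0.946). Elovl6, a fatty acid elongase, was at 17.8 ± 4.11 and 21.1 ± 2.20 CPM with overlapping groups, and its log2 fold change of 0.23 was 0.44 without BSA replicate 1 and 0.10 without BSA replicate 3. The synthase gene Fasn itself was at 0.00607 on the log2 scale. Acly had every rhMG53 library above every BSA library, and Srebf1, at -0.06 on the log2 scale, had every one below.

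**Figure D4:**
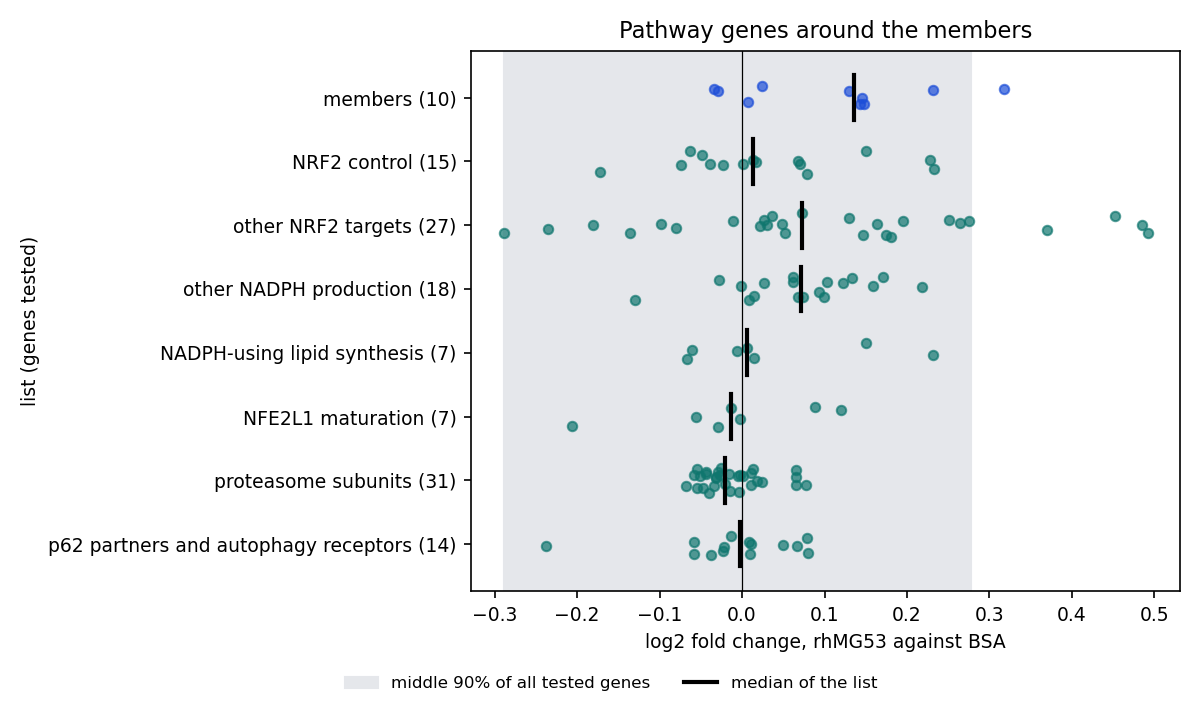
Log2 fold change of rhMG53 against BSA (horizontal axis) for the 10 genes (blue) and for each gene of the 7 lists (green), with the number of genes tested in brackets, the median as a black bar and the middle 90% of all tested genes shaded. The 10 genes have a median of 0.14, other NRF2 targets and other NADPH genes one of 0.07, and the remaining lists lie between -0.02 and 0.01.

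Among other known NRF2 targets (27 genes, all tested) 20 were higher and 7 lower with a median of 0.07. At an unadjusted p under 0.05, 8 were higher and 2 lower, where 2.98% and 2.22% of all tested genes were. In 11 every rhMG53 library lay above every BSA library and in 2 every one lay below, against 5.94% and 4.83% of all tested genes. Only Hmox1, the inducible heme oxygenase, passed, rising from 97.3 ± 3.87 to 136.9 ± 6.18 CPM (log2 fold change 0.49, SE 0.061, edgeR adjusted p 0.0313). Dropping any single library of the 6 ended this call, with adjusted p-values from 0.0685 to 0.571, as did the replicate number as a block (0.294), and over all 15 alternatives the adjusted p ran from 3.46e-06 (DESeq2) to 0.571. Gclm, the modifier subunit of the enzyme that begins glutathione synthesis, stood at 18.9 ± 2.51 and 25.9 ± 1.55 CPM (log2 fold change 0.45, SE 0.0998, edgeR adjusted p 0.855).

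Targets did not lie on 1 side of 0, with 20 higher and 7 lower. On the log2 scale Slc7a11 was at 0.48 with overlapping groups and Srxn1 at 0.37 with groups apart. Aox1 was at -0.29 and Blvra at -0.23, both with overlapping groups. The aldo-keto reductase genes Akr1b8 and Akr1b10, named here after their values were seen, were the 2 with every rhMG53 library below every BSA library. Akr1b8 was also under an unadjusted p of 0.05 in edgeR, and Akr1b10 was not. Akr1b8 was at 69.3, 74.0 and 75.0 CPM under BSA and 60.03, 65.4 and 67.1 CPM under rhMG53 (log2 fold change -0.18, SE 0.066, edgeR adjusted p 0.940). Akr1b10 was at 41.0, 42.3 and 40.9 CPM and at 37.2, 38.8 and 39.99 CPM (log2 fold change -0.10, edgeR adjusted p 0.973). These 2 genes are close relatives in sequence, and how reads that map to both were treated is not given.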

How the data were processed

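STAR, featureCounts and edgeR were used with mm10, per the submitters' processing notes, which give no versions. Per the labels' protocols, libraries were made from poly(A) RNA with a directional kit. Not given in the sources used here are the annotation, the strand setting and the handling of multi-mapping reads. Raw integer counts for each library were what the authors deposited, under NCBI gene IDs, and 25275 of the 27179 IDs were named through a RefSeq table of GRCm38.p6 and 18 more through GENCODE. No column was left unused, and no libraries agreed within sampling noise.

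Genes were filtered with filterByExpr (minimum count 10, minimum total count 15), scaled with TMM factors and tested with edgeR 4.0.16 (R 4.3.3) by its quasi-likelihood F test with treatment as the only term, 2-sided, with Benjamini-Hochberg adjustment over the 13769 genes kept and a threshold of 0.05. The biological coefficient of variation was 7.89%. The fit was tested on simulated data. CPM values use TMM-scaled library sizes, marker sums plain totals, and levels per kilobase merged GENCODE exon lengths. Near-identical copies were sought with blastn (identity of at least 90% over at least 200 bases).

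The 10 genes, the lists and the alternatives were chosen with earlier results of these data known. Named genes are the 10, the 2 of lowest p in each list, the 2 nearest in pattern to Nfe2l2 and to Nqo1, and relatives or list members given as context after their values were seen. Alternatives were other scaling factors, filters, DESeq2 1.42.0, limma voom (limma 3.58.1), robust moderation, a threshold of 0.1, the replicate number as a block, and each library left out.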

Additional observations from a re-analysis of the deposited data

How the results depend on the processing

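None of the 10 genes passed under any of the alternatives, and the number of the 10 with a higher level, 8 in the main fit, ran from 7 to 9. Over all tested genes, where 3 were called, DESeq2 called 5, the fit without the filter on low counts called 6 and a block for the replicate number left 0. With 1 library left out the number of calls ran from 0 (without BSA replicate 2) to 4 (without rhMG53 replicate 1). Of 150 values of the 10 genes under 15 alternatives, 143 kept their sign and their side of the threshold and 7 changed sign, all in Me1, Mafg or Keap1. Me1 was at -0.00014 (log2) with upper quartile factors. With 1 library left out Me1 ran from -0.0195 to 0.0312, Keap1 from -0.0666 to 0.00157 and Mafg from -0.0679 to 0.00988. Nfe2l1 ran from 0.01 to 0.05, Nqo1 from 0.25 to 0.41, Sqstm1 from 0.21 to 0.28, Nfe2l2 from 0.09 to 0.16, G6pdx from 0.11 to 0.19, Pgd from 0.12 to 0.16 and Taldo1 from 0.13 to 0.17. Of 21 other named genes only Hmox1 was called in the main fit, so only it had a call to lose. That call was lost in 7 of its 15 alternatives, with its log2 fold change from 0.46 to 0.53. The cause was not tested. Scaling moved the median of all genes by at most 0.0145. Replicate numbers gave no clear pairing, since deviations of libraries with the same number correlated at 0.19, -0.13 and -0.15. Those with different numbers correlated at between -0.22 (BSA replicate 1 with rhMG53 replicate 2) and 0.30 (BSA replicate 3 with rhMG53 replicate 2). Nqo1 had the lowest count of the 10 genes, 350 in BSA replicate 3. Its coefficient of variation with BSA, 11.1%, was larger than its counting error of 5.35%.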
